A study of Mus musculus with 2 samples.

Results

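The cardiac natriuretic peptide system was described through 7 genes, of 55357 in each count matrix, that were taken by symbol: the peptide precursors Nppa, Nppb and Nppc, the protease Corin and the receptors Npr1, Npr2 and Npr3. The counts came from single-cell RNA sequencing of mouse heart with 10x Genomics 3-prime chemistry, in which a unique molecular identifier (UMI) marks each captured RNA molecule. One library was from C57BL/6 mice given a sham operation (Sham), in which the aorta is not narrowed; this is the sample label, whereas the series' design text calls the control mice uninjured. The other was from C57BL/6 mice whose aortic arch had been ligated against a needle (transverse aortic constriction, TAC), which makes the left ventricle pump against a higher pressure. For TAC the labels give male mice operated on at 8 weeks of age and studied after 6 weeks; for Sham they give no age or duration. Each library held cells from 3 to 5 combined hearts, so animals cannot be separated, and with 1 library in each group there was no replicate and no test of TAC against Sham. All intervals below are exact 95% intervals that cover counting error only, and a difference between the libraries compares those libraries and not the conditions.

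Natriuretic peptides are hormones that the heart releases when its wall is stretched. Atrial natriuretic peptide (ANP, from Nppa) and B-type natriuretic peptide (BNP, from Nppb) bind natriuretic peptide receptor 1, a guanylyl cyclase that makes cyclic GMP and through it lowers blood pressure, promotes salt excretion and restrains growth of heart muscle and fibrosis. C-type natriuretic peptide (CNP, from Nppc) acts mainly through the related cyclase receptor 2, while receptor 3, which has no cyclase domain, removes all of these peptides from the circulation. Corin is a membrane serine protease of cardiomyocytes that cuts pro-ANP to the active hormone. In the adult heart Nppa is mainly an atrial gene, and Nppa and Nppb in ventricular muscle are widely used as marks of load and hypertrophy.

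All 7 gene identifiers were found in GENCODE M21 on GRCm38; the genome build used for counting is not given in the sources used here. Nppb (chr4:147985788-147987205) and Nppa (chr4:148000722-148002079) are neighbours on the + strand, 13516 bases apart with 0 annotated genes between them, and are short genes of 1418 and 1358 bases. Corin spans 204449 bases (chr5:72300025-72504473, - strand), Npr3 67392 bases (chr15:11839896-11907287, - strand), Npr2 19310 bases (chr4:43631935-43651244, + strand), Npr1 15276 bases (chr3:90450591-90465866, - strand) and Nppc 4281 bases (chr1:86666291-86670571, - strand). Antisense genes overlap Nppa, Corin, Npr1 and Npr2, and a divergent long noncoding RNA overlaps Npr3; the 3-prime chemistry keeps the strand of the RNA. The small nuclear RNA genes Gm25768 and Gm23712 and the long noncoding RNA AU023070 lie within Corin on its own strand, where strand cannot separate their reads from those of Corin.

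Promoter sequence of the neighbouring peptide genes is shown because the genes lie side by side and their UMIs tended to occur in the same cardiomyocytes (below). The sequences are RefSeq promoter sequence of GRCm38.p6, 5′ to 3′ on the + strand, and capitals mark the letters of a GATA motif (TGATAA or AGATAA, both strands), an M-CAT motif (GGAATG, both strands, the element bound by TEAD factors) and a TATA box (TATAAA, forward strand). The first is Nppa at chr4:148000472-148000721, the second the Nppb sequence before its earliest annotated start at chr4:147985650-147985785, and the third the 27 bases of the Nppb promoter at chr4:147985795-147985821 that hold its GATA and M-CAT letters. The RefSeq start used for the Nppb promoter lies downstream of the GENCODE start given above, so this stretch, at bases 105 to 79 before the RefSeq start, falls inside the gene as GENCODE annotates it.
Nppa upstream: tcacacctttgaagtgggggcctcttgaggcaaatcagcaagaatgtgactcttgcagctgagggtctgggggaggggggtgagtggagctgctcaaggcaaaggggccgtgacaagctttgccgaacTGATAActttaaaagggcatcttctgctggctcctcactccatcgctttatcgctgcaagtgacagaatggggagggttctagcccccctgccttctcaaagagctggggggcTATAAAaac
Nppb upstream: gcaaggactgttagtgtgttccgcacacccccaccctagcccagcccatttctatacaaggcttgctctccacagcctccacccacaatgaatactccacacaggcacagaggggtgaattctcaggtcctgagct
Nppb GATA and M-CAT stretch: GGAATGcagcTGATAAatcagAGATAA
In the 250 bases before the RefSeq start, Nppa held 1 GATA match and 0 M-CAT matches, and Nppb held 2 GATA matches and 1 M-CAT match. Motifs searched on both strands but not capitalised were the NKX core (AAGTG, 2 matches in Nppa and 0 in Nppb), the T-box motif (GGTGTGA, 1 and 0) and the CArG box (0 and 0). Among 32536 distinct mouse promoter windows of the same length, 16.5% held the GATA letters, 12.6% the M-CAT letters, 40.6% the NKX core, 3.33% the T-box letters and 1.48% a CArG box. Both genes also held the TATA letters, which were present in 7.55% of windows. These matches describe the sequence and say nothing of binding.

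The matrices held 9935 Sham and 9932 TAC barcodes with 28146691 and 29108986 UMIs, and 9475 and 9452 cells were kept, with 10 cell types described here. Cardiomyocytes were the deepest cells, with median UMI counts of 4510 in Sham and 4916.5 in TAC, against 1314.5 and 1660 in macrophages and 996 and 1100.5 in capillary endothelial cells. Each of the 10 types passed at least 3 of its own marker genes; the venous endothelial cells rested on 3. Mitochondrial genes gave 0.601% of Sham and 0.516% of TAC UMIs in kept cells. A total of 32 barcode sequences occurred in both libraries.

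Levels are given as UMIs of the gene per 1000000 UMIs of all genes in that cell type, so a level compares the same gene between cell types or libraries, not one gene with another. The system was split between cell types. Of the Nppb UMIs, 87.9% in Sham and 89.6% in TAC were in cardiomyocytes, and the same held for 94.8% and 95% of Corin UMIs and for 74.6% and 75.1% of Nppa UMIs. Receptor 1 transcripts lay in endothelium instead: blood vessel and endocardial endothelial cells held 73.2% of Npr1 UMIs in Sham and 76.7% in TAC. Receptor 3 transcripts lay in endocardial endothelial cells, the lining of the heart chambers, which held 64.6% and 84.6% of Npr3 UMIs. With each cell typed by its own markers these shares were 45.9% and 55.6%. Receptor 2 was the most widely spread, with 52.0% of Sham and 484 of 968 TAC Npr2 UMIs in cardiomyocytes, 27.9% and 27.7% in fibroblasts and 16.6% and 19.9% in blood vessel and endocardial endothelial cells. Leaving out the 1188 Sham and 1482 TAC cardiomyocytes with at least 2 UMIs of an atrial gene list, mostly Kcnj3 (below), gave Npr2 shares of 31.2% and 25.2%. These are shares of fewer cardiomyocytes and do not place Npr2 in atrial cells. Over all alternatives the Npr2 level in cardiomyocytes was at least 49.1 in Sham and 36.5 in TAC. Nppc was nearly undetected.

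**Figure D1:**
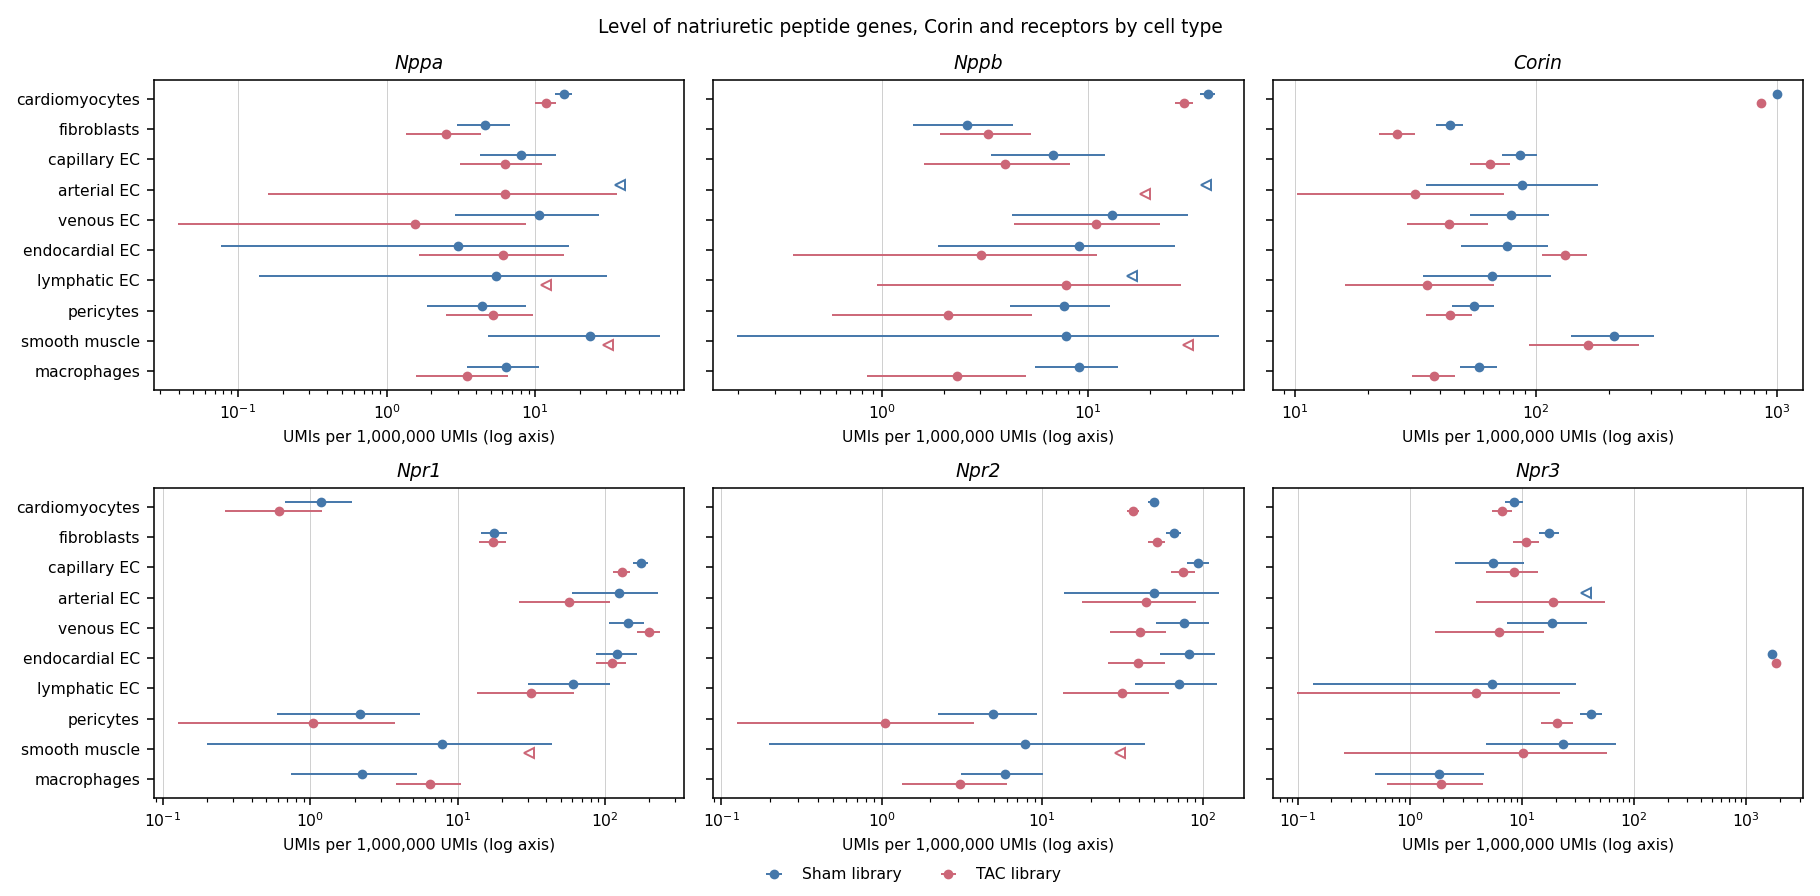
Level of 6 genes in 10 cell types (rows; EC, endothelial cells), in UMIs per 1000000 UMIs on a log axis; each panel has its own axis. Filled circles are the Sham and TAC libraries with exact 95% Poisson intervals, and open triangles mark the level of 3 counts where no UMI was found; Nppa, Nppb and Corin are highest in cardiomyocytes, apart from the Sham smooth muscle value of Nppa, which rests on 3 UMIs, Npr1 in endothelial cells and Npr3 in endocardial cells.

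Nppa, the ANP precursor, gave 209 UMIs in 91 of 2510 Sham cardiomyocytes, a level of 15.5 (13.5 to 17.7). In TAC cardiomyocytes it gave 154 UMIs in 46 of 2396 cells, a level of 11.7 (9.96 to 13.7). The TAC level was therefore 0.757 times the Sham level (interval 0.611 to 0.937). Among 14529 genes tested in cardiomyocytes (20 UMIs or more in either library and no fewer than 5 in its counterpart), 20.1% had an interval wholly below 1 and 25.1% wholly above, with a median ratio of 1.03. Nppa thus lay on the lower side, at a ratio below which 14.0% of the tested genes fell. Leaving out the 1188 Sham and 1482 TAC cardiomyocytes with at least 2 UMIs of a list of atrial genes, mostly Kcnj3, raised the Nppa levels to 30.4 and 28.3, with a ratio of 0.933 (0.723 to 1.20).

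Nppb, the BNP precursor, gave 514 UMIs in 331 Sham cardiomyocytes, a level of 38.1 (34.9 to 41.6), and 386 UMIs in 164 TAC cardiomyocytes, a level of 29.4 (26.6 to 32.5). The ratio of TAC to Sham was 0.772 (0.675 to 0.883). As for Nppa, the TAC library held fewer UMIs, and they lay in fewer cells. The TAC level of either peptide gene was not the higher one in cardiomyocytes as a whole. The libraries are named here by their labels, which no measurement used here checks independently, and every ratio would invert if the labels were exchanged. The paper counts the products of Myh7 and Nppa among hypertrophic factors, in a different model, isoproterenol treatment. It measured them as protein and RNA in hearts and as protein in cultured cardiomyocytes. Between the Sham and TAC libraries here Myh7 and Nppa RNA moved apart, which does not bear on those measurements. In cardiomyocytes Myh7 was higher in TAC (ratio 1.36, 1.32 to 1.40) and Myh6 lower (0.858, 0.852 to 0.864). Acta1 was lower in TAC as well (0.351, 0.291 to 0.422). Whether the labels are right was not tested. The Nppb ratio turned to 1.06 (0.891 to 1.27) when the same atrial-list cells were left out, with levels of 55.9 in Sham and 59.5 in TAC.

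Fewer TAC cardiomyocytes had a UMI of either gene. With every cardiomyocyte thinned to 1000 UMIs, which left out 33 Sham and 9 TAC cells, 1.45% of Sham cardiomyocytes (1.02 to 2.01) and 0.461% of TAC cardiomyocytes (0.230 to 0.823) kept a Nppa UMI; at full depth the shares were 3.63% and 1.92%. For Nppb the thinned shares were 3.23% (2.57 to 4.0) and 1.63% (1.16 to 2.23), and those at full depth 13.2% and 6.84%. At 500 UMIs a cell the Nppb shares were 1.43% (1.01 to 1.98) and 1.13% (0.744 to 1.64), a difference within the counting error. The Nppa intervals overlapped at 500 UMIs (0.956%, 0.614 to 1.42, and 0.459%, 0.229 to 0.820). They also overlapped at 2000 UMIs (2.07%, 1.53 to 2.75, and 1.10%, 0.714 to 1.62). Macrophages were taken as the comparison cells for free RNA, on the assumption that they make little of these peptides. Thinned to 1000 UMIs, macrophages gave shares of 0.593% and 0.357% for Nppa and of 0.692% and 0.179% for Nppb. The share of TAC cardiomyocytes with a thinned Nppa UMI, 0.461%, rests on 11 cells and was within the interval of the macrophage share (0.0975 to 0.913, 4 cells). By level, with all UMIs, TAC cardiomyocytes stood above macrophages by 3.39-fold for Nppa (1.74 to 7.56).

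The UMIs were also packed into fewer cells in the TAC library. The share of leading cells depends on the UMI total of a gene, which was lower in TAC for both genes. The 10 cardiomyocytes with the most Nppa UMIs held 33.5% of the Nppa UMIs of cardiomyocytes in Sham and 61.7% in TAC, with at most 10 UMIs in a Sham cell and 16 in a TAC cell. For Nppb the share of the 10 leading cells was 10.9% in Sham and 32.9% in TAC, and the highest cells held 10 and 32 UMIs. Cardiomyocytes with at least 5 Nppb UMIs numbered 7 in Sham and 15 in TAC, while those with exactly 1 numbered 223 and 94. For Nppa, cells with at least 5 UMIs numbered 12 and 10, those with 10 or more 1 and 5, and those with exactly 1 numbered 53 and 24. Single-UMI cells were thus fewer in TAC for both genes, and cells with at least 5 UMIs were more numerous for Nppb but not for Nppa.

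**Figure D2:**
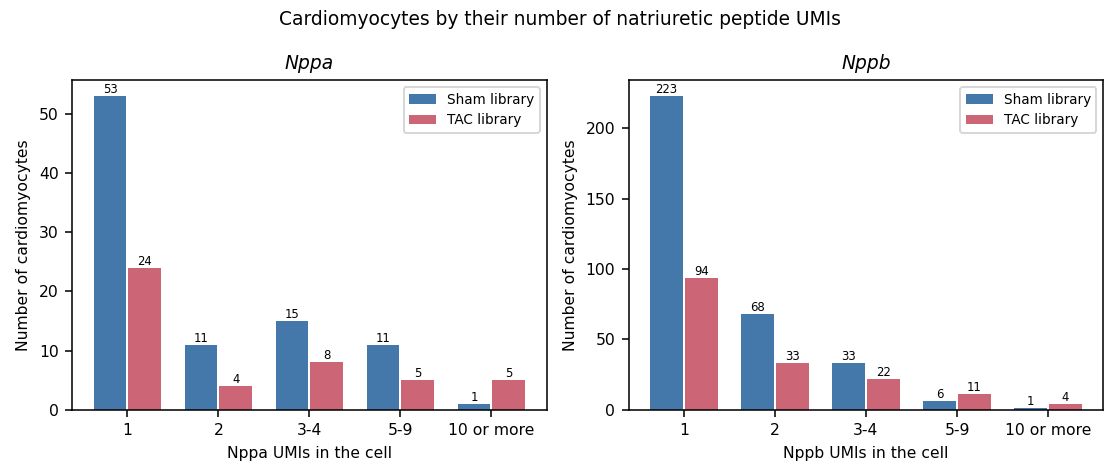
Number of cardiomyocytes (vertical axis) by the number of Nppa UMIs (left) or Nppb UMIs (right) in the cell, for the Sham and TAC libraries; cells with none are not drawn. Cells with 1 Nppb UMI number 223 in Sham and 94 in TAC, while cells with 10 or more number 1 and 4.

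Nppa and Nppb UMIs tended to occur in the same cells. Of the 91 Sham cardiomyocytes with a Nppa UMI, 36 also had a Nppb UMI (39.6%, 29.5 to 50.4), against 295 of 2419 cardiomyocytes without one (12.2%, 10.9 to 13.6). In TAC these shares were 18 of 46 (39.1%, 25.1 to 54.6) and 146 of 2350 (6.21%, 5.27 to 7.27). Cells with a Nppa UMI had somewhat more UMIs in all, with medians of 5086 against 4486 in Sham and 5594 against 4904.5 in TAC. At 1000 UMIs a cell the shares were 8 of 36 (22.2%, 10.1 to 39.2) against 2.95% in Sham and 3 of 11 (27.3%, 6.02 to 61.0) against 1.52% in TAC.

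Cardiomyocytes fell into 8 subclusters, formed without the 7 genes, the pathway genes listed below, the stress genes Myh7, Acta1 and Ankrd1 and the mitochondrial genes. Most were nearly those of 1 library: subclusters 1 to 3 held 2110 of the Sham cardiomyocytes (84.1%) and subclusters 4, 6 and 7 held 1832 of the TAC cardiomyocytes (76.5%). The cardiomyocyte values of Sham and TAC above therefore come mainly from different subclusters. Subcluster 5 held cells of both libraries, 204 from Sham and 325 from TAC, and its leading genes were Ankrd1, a stretch-responsive ankyrin repeat protein of heart muscle, and Nppb. It was singled out after its values were seen.

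In subcluster 5 the Nppb level was 88.1 in Sham (129 UMIs) and 115 in TAC (252 UMIs), a ratio of 1.30 (1.05 to 1.62). The Nppa level there was 35.5 in Sham (52 UMIs) and 56.4 in TAC (124 UMIs), a ratio of 1.59 (1.14 to 2.24). In all other cardiomyocytes Nppb was 32.0 in Sham (385 UMIs) and 12.3 in TAC (134 UMIs), a ratio of 0.383 (0.312 to 0.467). Nppa in those cells was 13.1 (157 UMIs) and 2.75 (30 UMIs), a ratio of 0.210 (0.137 to 0.312). Both peptide transcripts were thus somewhat higher in TAC within the shared subcluster and lower in the other cardiomyocytes pooled. That pool sets subclusters that are nearly all Sham against others that are nearly all TAC, and their values rest on few UMIs in at least 1 library. Within the 7 other subclusters, the Nppb level was lower in TAC in 6 and higher in subcluster 4 (8.69 from 2 UMIs, and 11.5). In subcluster 3 the Nppb level was 28.2 in Sham (73 UMIs) and 9.14 in TAC (2 UMIs). The Nppa level was lower in TAC in 5 of the 7, among them subcluster 3 (11.6 from 30 UMIs, and 0), and higher in subcluster 4 (0 and 5 UMIs) and subcluster 1, where 6 TAC UMIs in 1 cell gave 49.1 against 21 in Sham. The UMIs within subcluster 5 came from few cells, 13 of 204 Sham and 25 of 325 TAC cells for Nppa and 63 and 85 of them for Nppb, so the higher TAC level was not matched by a larger share of cells with a Nppb UMI. Subcluster 5 accordingly held 25.1% of the Nppb UMIs of Sham cardiomyocytes and 65.3% of those of TAC cardiomyocytes, and 24.9% and 80.5% of the Nppa UMIs.

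Outside it, the Sham peptide UMIs lay mainly in subcluster 1, led by the prostaglandin D synthase gene Ptgds, with 770 Sham and 25 TAC cells. It held 255 Nppb UMIs (a level of 53.5) and 100 Nppa UMIs (21) in Sham. Subcluster 7, with 78 Sham and 903 TAC cells, was low in TAC, with levels of 5.93 for Nppb and 1.30 for Nppa. Subcluster 8, a group of 45 Sham and 58 TAC cells led by Fgf12, had a Nppa level of 58.9 in Sham from 13 UMIs and of 21.5 in TAC from 6 UMIs; it was also where Myl4, an atrial light chain gene, was highest, at 58.9 and 143.

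**Figure D3:**
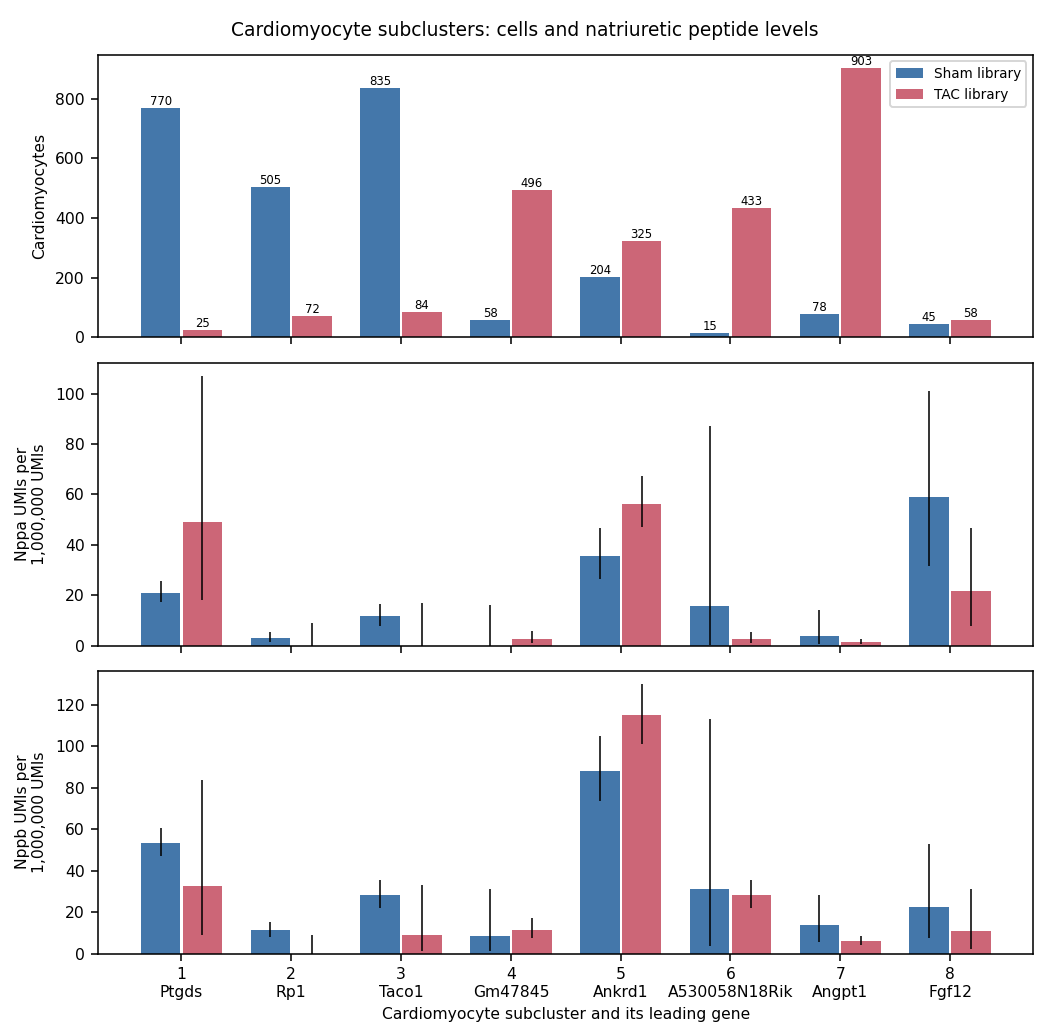
Cardiomyocyte subclusters, numbered and named by their leading gene. Bars give the number of cells (top) and the Nppa (middle) and Nppb (bottom) levels in UMIs per 1000000 UMIs for the Sham and TAC libraries, with exact 95% Poisson intervals as lines; subcluster 5 has the highest Nppb level in both libraries, 88.1 and 115.

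Other values moved with these. In cardiomyocytes the mitochondrial share of UMIs was 0.259% in Sham and 0.142% in TAC, lower in TAC both in subcluster 5 (0.189% and 0.114%) and in the others (0.268% and 0.147%). The 8 contractile genes used below as cardiomyocyte RNA had TAC to Sham ratios from 0.686 (Tnnt2) to 1.51 (Actc1), 4 above 1 and 4 below. The part of these differences in the peptide values was not tested. Of the stress genes, Acta1, skeletal actin, had levels of 33.7 in Sham and 11.8 in TAC (ratio 0.351, 0.291 to 0.422), Myh7, the slow myosin heavy chain, of 609 and 826 (1.36, 1.32 to 1.40) and Ankrd1 of 333 and 335 (1.01, 0.967 to 1.05). In cardiomyocytes outside subcluster 5 Acta1 and Ankrd1 were also lower in TAC, with ratios of 0.131 (0.0932 to 0.179) and 0.570 (0.535 to 0.607), and Myh7 was higher, at 1.42 (1.37 to 1.46).

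Defining atrial transcripts were few in cardiomyocytes. Cardiomyocytes held 3 Myl7 UMIs in Sham and 12 in TAC, 2 and 6 of Sln and 0 and 0 of Bmp10, which are atrial genes, and 62 and 112 of Myl4. The 2 Sham and 11 TAC cells with a UMI of Myl7, Sln or Bmp10 held 0 and 1 Nppa UMIs. Kcnj3, also on the atrial list, was found in 1701 Sham and 1927 TAC cardiomyocytes and did not set atrial cells apart. Subcluster 8 held 3 of the 3 Sham and 10 of the 12 TAC Myl7 UMIs, 2 of 2 and 4 of 6 Sln UMIs, 13 of 62 and 40 of 112 Myl4 UMIs, and the highest Sham Nppa level. It held 13 of the 209 Sham and 6 of the 154 TAC Nppa UMIs of cardiomyocytes.

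Nppa and Nppb UMIs in other cells were few. Outside cardiomyocytes there were 71 Nppa UMIs in 6965 Sham cells and 51 in 7056 TAC cells, mostly 1 to a cell, at levels of 5.70 and 3.77, and 71 and 45 Nppb UMIs, at 5.70 and 3.33. In macrophages the Nppa level was 40.9% of the cardiomyocyte level in Sham and 29.5% in TAC, and the Nppb level 23.8% and 7.84%. Over the 8 contractile genes together the macrophage level was 7.34% and 5.53% of that in cardiomyocytes, and gene by gene it ranged from 5.55% (Myh6) to 43.5% (Mb) in Sham and from 3.63% to 34.7% in TAC. The macrophage values for Nppa and Nppb lay within the range of these cardiomyocyte transcripts and cannot be told from background. Nppa stood above the highest contractile gene of the same cell type in Sham smooth muscle cells (151% of the cardiomyocyte level, 30.9 to 448, from 3 UMIs), Sham venous cells (67.9%, 18.3 to 176, 4 UMIs), TAC endocardial cells (51.7%, 13.9 to 135, 4 UMIs), TAC pericytes (44.4%, 20.9 to 83.8, 10 UMIs) and TAC arterial cells (53.6%, 1 UMI). These counts are too few to tell expression from background. The Nppb level in macrophages was lower in TAC, with 20 and 6 UMIs and a ratio of 0.255 (0.0837 to 0.658), and the Nppa ratio in fibroblasts, from 25 and 13 UMIs, was 0.546 (0.257 to 1.11).

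**Figure D4:**
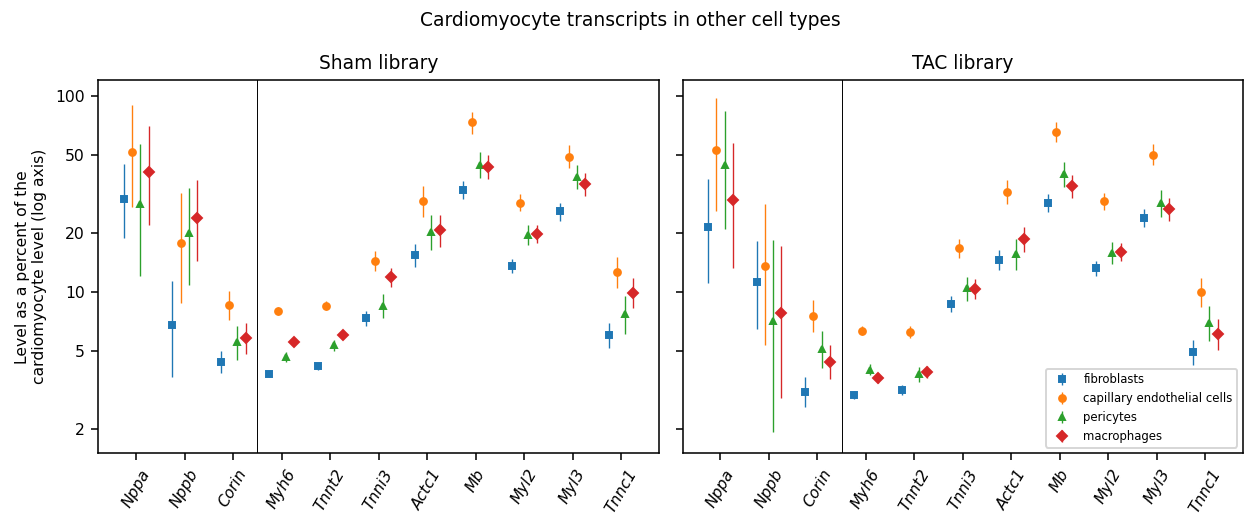
Level of Nppa, Nppb, Corin and 8 contractile genes in 4 other cell types as a percent of the level in cardiomyocytes (log axis), in the Sham (left) and TAC (right) library, with exact 95% intervals from the counts. Nppa and Nppb lie within the span of the contractile genes of the same cell type, apart from Nppa in TAC pericytes at 44.4%, and Corin, at 5.80% in Sham macrophages, lies near Myh6 at 5.55%.

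Nppc was below what this depth can measure. Sham held 3 Nppc UMIs in 9475 cells, 2 in cardiomyocytes and 1 in a fibroblast, and TAC held 5 in 9452 cells, 4 in fibroblasts and 1 in an endocardial cell. The fibroblast level was 0.184 (0.00466 to 1.02) in Sham and 0.772 (0.210 to 1.98) in TAC. Capillary endothelial cells had 0 UMIs in either library, which allows a level of up to 1.84 in Sham and 1.70 in TAC, and macrophages had 0, which allows up to 1.36 and 1.15.

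Corin, the ANP-activating protease, was a gene of nearly every cardiomyocyte. It gave 13466 UMIs in 2216 of 2510 Sham cardiomyocytes (88.3%), a level of 999 (982 to 1016), and 11210 UMIs in 2100 of 2396 TAC cardiomyocytes (87.6%), a level of 854 (839 to 870). The ratio of TAC to Sham was 0.856 (0.834 to 0.877). The 10 leading cardiomyocytes held 2.64% of the Corin UMIs in Sham and 2.52% in TAC. Such a share depends on the UMI total of a gene, so it does not compare Corin with the peptides. Thinned to 1000 UMIs, 55.7% of Sham and 51.6% of TAC cardiomyocytes kept a Corin UMI, against 4.85% and 3.75% of macrophages.

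Corin did not share the higher TAC level of Nppa and Nppb in subcluster 5. Its level there was 924 in Sham and 621 in TAC (ratio 0.672, 0.623 to 0.725), and in the other cardiomyocytes 1008 and 901 (0.895, 0.871 to 0.919). Across subclusters the Corin level ran from 837 in subcluster 1 to 1844 in subcluster 8 in Sham, and from 597 to 1271 in the same subclusters in TAC.

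In droplet data free RNA of broken cells puts UMIs of cardiomyocyte genes into every cell type, and in most other cells the Corin level stood near that of contractile genes. In fibroblasts, capillary endothelial cells, pericytes and macrophages it stood at 4.38% to 8.56% of the cardiomyocyte level in Sham and at 3.10% to 7.55% in TAC, where the 8 contractile genes together stood at 5.04% to 10.4% and 4.56% to 9.55%. In smooth muscle cells of both libraries and endocardial cells of TAC, the whole interval of the Corin value lay above the value of the 8 contractile genes summed, though the Corin value was within the range of the single contractile genes. Smooth muscle cells had Corin levels of 211 (139 to 307) in Sham and 164 (93.7 to 266) in TAC, which is 21.1% (13.9 to 30.7) and 19.2% (11.0 to 31.2) of the cardiomyocyte level, against 6.23% and 5.37% for the contractile genes together and up to 26.5% (Myl3) and 35.5% (Mb) for single ones; these values rest on 27 UMIs in 12 of 51 cells and 16 UMIs in 12 of 43 cells. Endocardial endothelial cells had a Corin level of 75.6 (48.9 to 112) in Sham and 132 (106 to 163) in TAC, a ratio of 1.75 (1.11 to 2.84), which is 7.57% and 15.4% of the cardiomyocyte level, while the contractile genes together stood at 7.24% and 5.89% and single ones at up to 66.2% and 46.7% (Mb). The 87 endocardial UMIs of the TAC library lay in 44 of 300 cells, with 13 in 1 cell. Thinned to 1000 UMIs, 6.94% of Sham (3.38 to 12.4) and 8.54% of TAC endocardial cells (5.55 to 12.4) kept a Corin UMI, so the share of cells did not differ detectably.

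Npr1, the guanylyl cyclase receptor of ANP and BNP, was an endothelial gene in these data. In capillary endothelial cells it gave 284 UMIs in 244 of 1400 Sham cells, a level of 175 (155 to 196), and 230 UMIs in 200 of 1442 TAC cells, a level of 130 (114 to 148). The level in venous endothelial cells was 142 (107 to 185) in Sham and 198 (165 to 235) in TAC, in endocardial cells 121 (86.4 to 165) and 111 (86.8 to 139), and in arterial cells 124 (59.7 to 229) and 56.7 (25.9 to 108). These 4 types held the highest Npr1 levels. Venous and capillary cells did not differ beyond counting error in Sham (venous over capillary 0.813, 0.596 to 1.09), and venous cells were higher in TAC (1.52, 1.21 to 1.90). Endocardial and arterial cells did not differ beyond counting error in either library (0.971, 0.477 to 2.18, and 1.95, 0.975 to 4.44). Lymphatic endothelial cells followed with 60.2 and 31.3, from 11 and 8 UMIs.

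Outside the endothelium Npr1 was low. Fibroblasts had levels of 17.7 (14.3 to 21.6) in Sham and 17.4 (14.0 to 21.4) in TAC, below capillary cells by 9.89-fold (7.82 to 12.6) and 7.49-fold (5.84 to 9.66). Cardiomyocytes, which supply most of the ligand transcripts, had levels of 1.19 (0.678 to 1.93) and 0.610 (0.263 to 1.20), from 16 and 8 UMIs, below capillary cells by 147-fold (89.0 to 261) and 213-fold (106 to 500). Macrophages had 5 UMIs in Sham and 17 in TAC, pericytes 4 and 2, and smooth muscle cells 1 and 0. Pericytes and cardiomyocytes, the lowest neighbours, did not differ beyond counting error (1.84, 0.447 to 5.70 in Sham and 1.71, 0.177 to 8.56 in TAC).

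Between the libraries Npr1 moved in opposite directions in neighbouring endothelial types. The ratio of TAC to Sham was 0.745 (0.624 to 0.890) in capillary cells and 1.39 (1.01 to 1.95) in venous cells. It was 0.916 (0.614 to 1.38) in endocardial cells and 0.984 (0.730 to 1.33) in fibroblasts. Among 9459 genes tested in capillary cells, 11.1% had an interval below 1, and among 5547 in venous cells 7.91% had one above 1. The capillary value depended on where the border between endothelial types was drawn: with finer clusters (resolution 2) it was 0.960 (0.775 to 1.19), and with each cell typed by its own markers 1.30 (0.954 to 1.79). Over all cells Npr1 stood at 20.4 in Sham and 21.5 in TAC, a ratio of 1.05 (0.932 to 1.19).

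Npr2, the CNP receptor, was found in cardiomyocytes, fibroblasts and endothelial cells alike and was near absent from pericytes and macrophages. Its level was highest in capillary endothelial cells, at 94.0 (79.7 to 110) in Sham and 75.8 (63.5 to 89.8) in TAC. In Sham the capillary interval overlapped those of endocardial (81.6, 53.8 to 119), venous (76.3, 51.1 to 110), lymphatic and arterial cells. In TAC it overlapped that of arterial cells (44.1, 17.7 to 90.8). Fibroblasts had 65.8 (59.2 to 73.0) and 51.7 (45.7 to 58.3), lower than capillary cells by 1.43-fold (1.17 to 1.73) and 1.46-fold (1.18 to 1.81). Cardiomyocytes had 49.4 (45.7 to 53.3) and 36.9 (33.7 to 40.3). Venous, endocardial, lymphatic and arterial endothelial cells had Sham levels between 49.8 and 81.6 and TAC levels between 31.3 and 44.1, from 4 to 29 UMIs a value, and no neighbouring pair among them differed beyond counting error. In macrophages, by contrast, the level was 5.89 (3.13 to 10.1) and 3.08 (1.33 to 6.06), below cardiomyocytes by 8.39-fold (4.87 to 15.8) and 12.0-fold (6.04 to 27.9).

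In the 5 cell types that had enough UMIs, the Npr2 level was lower in TAC than in Sham. The ratio was 0.747 (0.663 to 0.841) in cardiomyocytes, from 666 UMIs in 518 cells and 484 UMIs in 407 cells. It was 0.786 (0.668 to 0.923) in fibroblasts, from 358 and 268 UMIs, and 0.806 (0.634 to 1.02) in capillary cells, from 153 and 134. In venous cells it was 0.531 (0.300 to 0.934), and in endocardial cells, from 27 and 26 UMIs, 0.483 (0.271 to 0.860). The endocardial value passed 2-fold, which 1.63% of 5586 genes tested there did in this direction. Over all cells the ratio was 0.735 (0.676 to 0.800). At 1000 UMIs a cell, the share of cardiomyocytes with a Npr2 UMI was 6.30% (5.37 to 7.33) in Sham and 4.44% (3.65 to 5.35) in TAC. In macrophages it was 0.396% and 0.447%. The cardiomyocyte intervals overlapped at 500 UMIs (3.27%, 2.61 to 4.04, and 2.42%, 1.84 to 3.12). They also overlapped at 2000 UMIs (8.73%, 7.60 to 9.97, and 7.62%, 6.56 to 8.79).

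Npr3, the clearance receptor, stood out in endocardial endothelial cells. It gave 565 UMIs in 122 of 192 Sham endocardial cells (63.5%), a level of 1708 (1570 to 1854), and 1228 UMIs in 208 of 300 TAC endocardial cells (69.3%), a level of 1862 (1759 to 1969). The level was higher than in capillary cells by 309-fold (161 to 679) in Sham and 219-fold (133 to 393) in TAC. It was higher than in pericytes, the next in order, by 41.2-fold (32.4 to 53.0) and 89.4-fold (65.2 to 126). The 7 genes were left out of the clustering and out of the markers that named these cells, which were recognised by 9 endocardial markers, among them Tmem108, Nrg1, Cdh11 and Smoc1. A single endocardial cell held at most 23 Npr3 UMIs in Sham and 40 in TAC.

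The endocardial Npr3 level was about the same in both libraries, with a ratio of 1.09 (0.986 to 1.21), while the total over all cells was not. Over all cells Npr3 stood at 33.7 in Sham and 54.5 in TAC, a ratio of 1.61 (1.48 to 1.76). Endocardial cells were 2.03% of Sham and 3.17% of TAC cells, and gave 1.28% and 2.48% of UMIs, with median depths of 1509 and 2047. Outside them the Npr3 level was 12.1 and 8.58, a ratio of 0.709 (0.594 to 0.845). The higher total in TAC was thus that of the endocardial cells, which gave a larger share of UMIs in the TAC library through both their number and their depth; that share has no replicate.

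Most of the remaining Npr3 UMIs were in pericytes, fibroblasts and cardiomyocytes. Values elsewhere rested on few UMIs, though some levels were as high. They were 18.4 in Sham venous cells (7 UMIs) and 8.49 in TAC capillary cells (15 UMIs). TAC cells outside the 10 described types stood at 37.7 (9 UMIs). Pericytes had levels of 41.5 (32.7 to 51.9) in Sham and 20.8 (14.9 to 28.4) in TAC, from 76 UMIs in 55 cells and 40 UMIs in 37 cells, a ratio of 0.503 (0.334 to 0.747). Fibroblasts had 17.5 (14.1 to 21.4) and 11.0 (8.34 to 14.3), a ratio of 0.630 (0.445 to 0.884), and cardiomyocytes 8.53 (7.04 to 10.2) and 6.71 (5.38 to 8.26), a ratio of 0.787 (0.589 to 1.05). All 3 lay above the macrophage level of 1.81 in Sham and 1.92 in TAC, by 22.9-fold and 10.8-fold in pericytes, 9.65-fold and 5.72-fold in fibroblasts and 4.71-fold and 3.49-fold in cardiomyocytes, with lower interval bounds of at least 1.44. Among 9714 genes tested in pericytes 11.0% had an interval below 1, and among 13576 in fibroblasts 13.8% did.

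Across the series, 25 pairs of gene and cell type had enough UMIs for a ratio. The interval lay below 1 in 15 of them, above 1 in 2 and across 1 in 8. By cell type the number below 1 was 4 of 5 genes in cardiomyocytes (20.1% of all tested genes), 3 of 5 in fibroblasts (13.8%), 2 of 3 in capillary cells (11.1%), 2 of 3 in venous cells (7.08%), 1 of 4 in endocardial cells (7.63%), 1 of 2 in pericytes (11.0%), 0 of 1 in smooth muscle cells (7.24%) and 2 of 2 in macrophages (15.7%). Arterial and lymphatic cells gave no such pair. An interval above 1 was found for Corin in endocardial cells (7.45% of genes tested there) and Npr1 in venous cells (7.91%), and for none of the members in cardiomyocytes (25.1%), fibroblasts (18.6%), capillary cells (13.7%), pericytes (10.6%), smooth muscle cells (6.31%) and macrophages (16.0%). A level at least 2-fold lower in TAC was found for 2 pairs, Nppb in macrophages (2.71% of genes) and Npr2 in endocardial cells (1.63%), with Npr3 in pericytes just outside, and for none in cardiomyocytes (1.90%), fibroblasts (1.27%), capillary cells (1.98%), venous cells (1.51%), pericytes (1.87%) and smooth muscle cells (5.72%). No pair was at least 2-fold higher, as were 6.94% of genes in cardiomyocytes, 5.49% in fibroblasts, 4.44% in capillary cells, 4.78% in venous cells, 5.35% in endocardial cells, 3.98% in pericytes, 3.28% in smooth muscle cells and 4.58% in macrophages. The Corin, Nppa and Nppb values outside cardiomyocytes among them can count free cardiomyocyte RNA as well, so the pairs are not independent. The median ratio over all genes lay between 0.929 and 1.07 in the 10 cell types.

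**Figure D5:**
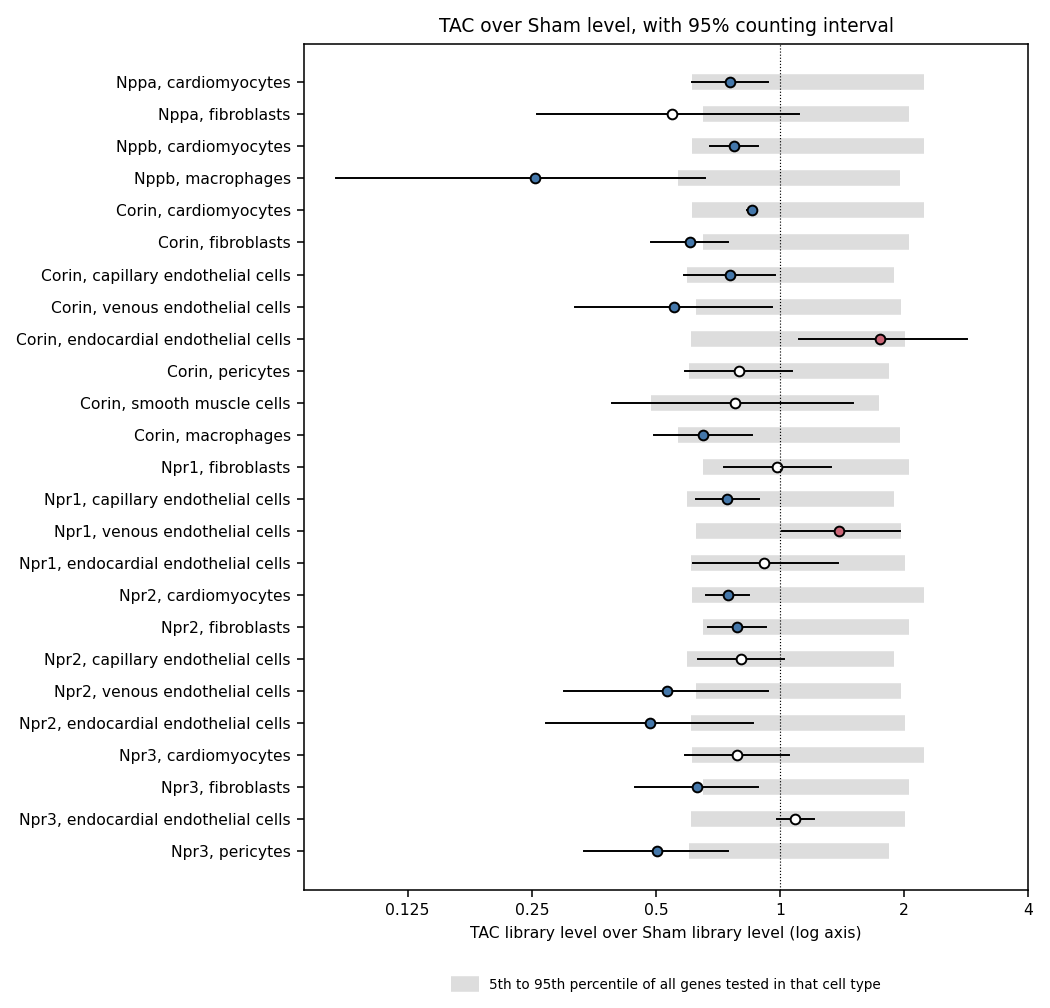
TAC level over Sham level (log axis) for the 25 pairs of gene and cell type past the count minimum. Points carry exact 95% intervals from the counts, coloured where the interval lies below 1 (blue) or above 1 (red), over a grey band from the 5th to the 95th percentile of all genes tested in that cell type; 15 intervals lie below 1 and 2 above, Corin in endocardial cells at 1.75 and Npr1 in venous cells at 1.39.

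The signalling genes around the peptides were read from a list of 40 gene symbols, of which 39 were in the matrices under the listed names. The list covered peptide processing, soluble guanylyl cyclase, cyclic GMP kinases, phosphodiesterases, kinase targets, cyclic GMP export and transcription factors that act on Nppa and Nppb. In cardiomyocytes 33 passed the count minimum; 12 had an interval above 1 and 9 below, where 25.1% and 20.1% of all tested genes did, with a median ratio of 1.01 against 1.03 over all genes. All 11 transcription factors were measured there, with ratios from 0.610 to 1.82, 5 intervals above 1 and 3 below, and none passed 2-fold. The ratio was at least 2 or at most 0.5 in 5 pairs of gene and cell type, in 1 of which, Pde5a in endocardial cells, the interval included 1. Pde10a, a phosphodiesterase of cyclic AMP and cyclic GMP, had 93 Sham and 181 TAC UMIs in cardiomyocytes (levels 6.90 and 13.8, ratio 2.0, 1.55 to 2.60), a size reached by 6.94% of genes tested there. Rgs2, a regulator of G protein signalling that cyclic GMP kinase activates, had 15 and 33 UMIs in fibroblasts (ratio 2.31, 1.22 to 4.58; 5.49% of genes). In capillary cells Pde1a, a calmodulin-dependent phosphodiesterase, had 42 and 21 UMIs (0.460, 0.259 to 0.795) and Irag1, a kinase target that restrains calcium release, 20 and 7 (0.322, 0.115 to 0.793), where 1.98% of genes were at least 2-fold lower. Pde5a, the cyclic GMP phosphodiesterase blocked by sildenafil, had 8 and 34 UMIs in endocardial cells (2.13, 0.969 to 5.33; 5.35% of genes).

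The genes whose profile over cell types was most like that of each member were found by Pearson correlation over 14 profiles, those of 7 cell types in both libraries, among 15429 genes; the profiles share library, depth and free RNA, and the values are a description. Corin was most like Myoz2 (r = 0.981), Hs3st5 (0.979) and Kcnk3 (0.974), Npr1 most like Rapgef3 (0.987), Hspa12b (0.983) and Fgd5 (0.983), and Npr2 most like Pik3ip1 (0.971), Tmtc1 (0.969) and Prickle1 (0.949). Npr3 was most like Nrg1 (0.946), which was also one of the markers that named the endocardial cells, H19 (0.942) and Wdr17 (0.935). The peptide genes had looser neighbours, Pgam2 (0.915), Pfkfb2 (0.907) and Sdsl (0.898) for Nppa and Cabcoco1 (0.928), Bche (0.918) and Trim54 (0.916) for Nppb.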

How the data were processed

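The deposited files hold raw UMI counts per gene and barcode for 1 Sham and 1 TAC library. The authors made them with Cell Ranger, version 7.1.0 per the labels; the genome build and whether intronic reads were counted are not given in the sources used here. The labels name the third version of the 3-prime kit; the study's methods name other versions of kit and software. The counts were used as deposited. Barcodes with at least 200 detected genes were kept and predicted doublets removed (Scrublet in scanpy 1.11.5; 459 Sham and 479 TAC barcodes). Both libraries were clustered together (2000 variable genes, 30 principal components, 15 neighbours, Leiden resolution 1, seed 1) without the 7 genes, the pathway list, the stress genes and the mitochondrial genes. Naming a cluster took 3 or more markers, each detected in 10% or more of the cluster and raised there by a log2 fold of 1 or more. A group of 49 Sham and 11 TAC cells that passed 5 dendritic cell markers stayed unnamed because at least 3 of its 10 leading genes were cell cycle genes, a rule that set such clusters aside.

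Counts were summed per cell type and library. Levels carry exact Poisson intervals, shares Clopper-Pearson intervals, and ratios exact conditional binomial intervals; PCR duplicates were collapsed by UMI, and the intervals cover counting error only. A count of 0 allows up to 3 counts. The ratio step was run on simulated data: for cardiomyocytes, 200 of 200 genes changed 4-fold were recovered past 2-fold among 14385 genes, and 95.3% of intervals covered the true ratio. The simulated counts were Poisson, the model of the intervals, so this coverage checks the computation only. They held no spread between cells or animals, and no change smaller than 4-fold was simulated. The named genes are the 7 members; a pathway gene was named for a cell type where its ratio was at least 2 or at most 0.5, and the 3 most like genes for each member with at least 20 UMIs in each library were named. Members, lists, markers and alternatives were chosen with earlier results of these data known. Alternatives concerned cell filters, doublets, clustering, typing, scaling, single cells, shared barcodes, atrial markers and thinning depth. Analyses used Python 3.11.15, numpy 2.4.6, scipy 1.17.1 and igraph 0.11.9.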

Additional observations from a re-analysis of the deposited data

Results flagged for a closer look

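The Corin level was higher in TAC than in Sham in endocardial endothelial cells (ratio 1.75) and lower in cardiomyocytes, fibroblasts, capillary and venous endothelial cells and macrophages. In the last 4 types Corin stood at 3.10% to 8.56% of the cardiomyocyte level, near the contractile genes. Those values cannot be told from free cardiomyocyte RNA. The 3 TAC endocardial cells with the most Corin UMIs held 26 of the 87. At 1000 UMIs a cell the share of endocardial cells with a Corin UMI was 6.94% in Sham and 8.54% in TAC. The Npr1 level was higher in TAC in venous endothelial cells (ratio 1.39) and lower in capillary endothelial cells. These were picked out because counting intervals lay on opposite sides of 1 in different cell types. The difference between cell types was not tested, since each library has no replicate.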

How the results depend on the processing

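Each group was 1 library, so leaving out a replicate was not possible and the libraries carry no replicate error. No paired analysis was possible because each group held a single library. Depth limits the reading of Nppc in all cell types and of every member in arterial, lymphatic and smooth muscle cells, apart from Corin in the last.

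Of the main values under the alternatives, 173 kept their direction within the counting interval, 41 left it and 2 reversed in point value. For single values the numbers were 441, 59 and 0. The ratio of TAC to Sham ran from 0.667 to 0.933 for Nppa, 0.718 to 1.06 for Nppb, 0.832 to 0.868 for Corin and 0.727 to 0.807 for Npr2 in cardiomyocytes, from 0.730 to 1.30 for Npr1 in capillary cells and from 1.02 to 1.21 for Npr3 in endocardial cells. With no doublets removed, cardiomyocytes held 84.3% of Sham Nppb UMIs and 92.6% and 92.4% (Sham and TAC) of Corin UMIs, and capillary cells 43.7% and 36.1% of Npr1 UMIs. The capillary share of Npr1 was 64.2% and 62.8% at resolution 0.5 and 46.2% and 36% with each library clustered by itself. At resolution 2 the cardiomyocyte share was 59.0% for Nppa in TAC, 80.2% and 73.1% for Nppb, 87.1% and 84.7% for Corin and 48.0% and 44.8% for Npr2, and Npr1 in capillary cells had a ratio of 0.960 and shares of 30.8% and 33.7%. With each cell typed by its own markers the cardiomyocyte shares were 59.6% and 67.3% for Nppa, 78.3% and 75.4% for Nppb, 87.7% and 85.8% for Corin and 48.4% and 44.4% for Npr2. In that setting Npr1 in capillary cells had a ratio of 1.30, with an interval that included 1, and shares of 14.3% and 16.4%. Npr3 in endocardial cells then had a ratio of 1.21 and shares of 45.9% and 55.6%. Another alternative left out cardiomyocytes with at least 2 UMIs of the atrial list, 1188 Sham and 1482 TAC cells, and rests mainly on Kcnj3. Without them the Nppb ratio was 1.06, with an interval that included 1, and the Corin ratio was 0.832. The levels were 30.4 and 28.3 (Sham and TAC) for Nppa and 55.9 and 59.5 for Nppb. The cardiomyocyte shares, now of fewer cardiomyocytes, were then 67.7% for Nppa in TAC, 80.5% and 83.3% for Nppb, 86.7% and 83.0% for Corin and 31.2% and 25.2% for Npr2. An alternative added after seeing the data left out the 2 Sham and 11 TAC cardiomyocytes with a Myl7, Sln or Bmp10 UMI, and the Nppb ratio was 0.775. Scaled by the median ratio of all genes, the Corin ratio in cardiomyocytes was 0.832. Clustering each library by itself, or at resolution 0.5, gave no venous type in both libraries and so no venous value. For these changes the cause was not tested.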
